A study of Mus musculus with 2 samples.

Results

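The genes described here are the 3 chains of complement C1q (C1qa, C1qb and C1qc) and 7 genes used to mark macrophages that live in tissue (Apoe, Trem2, Mrc1, Cd5l, Vsig4, Clec4f and Marco). All 10 were found among the 32285 features of both libraries. The list was drawn up with earlier results of these data known, and the classes of cells in which it is described were chosen by measured C1q UMIs. Cells with at least 1 UMI of Csf1r, the receptor for the growth factor CSF1 on monocytes and macrophages, were split by their summed C1q UMIs into C1q-high (at least 10) and C1q-low (under 10) cells. C1q levels in these classes are therefore a description. A UMI (unique molecular identifier) tags 1 captured RNA molecule, so that its PCR copies are counted once.

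Liver tumors had been induced in young adult male wild-type C57BL/6J mice by hydrodynamic tail vein injection of human MYC, sgTrp53 and sleeping beauty transposase. All mice first received lenvatinib, a multikinase inhibitor, at 30 mg/kg for 25 days until tumors grew under the drug. The lenvatinib library came from tumors then given lenvatinib (30 mg/kg), the combo library from tumors given lenvatinib (30 mg/kg) with the CDK4/6 inhibitor palbociclib (100 mg/kg). Live CD45+ cells were sorted, and the number of mice behind each library is not given in the sources used here. There was 1 library per condition, so no test was possible, and library and treatment cannot be told apart. Cells are not replicates. Intervals in parentheses are exact 95% intervals, Poisson for summed counts and Clopper-Pearson for shares, and cover counting error only.

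C1qa, C1qb and C1qc encode the chains of the molecule that starts the classical complement pathway, and macrophages are its main source. The macrophages resident in the liver, Kupffer cells, line the sinusoids, clear particles from blood and are known for Clec4f, Vsig4, Marco, Cd5l and Timd4. Macrophages that arise from blood monocytes can also make C1q, and those that take up lipid are known for Trem2 and Apoe.

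The C1q genes lie side by side on the minus strand of chromosome 4 (GENCODE, mm10), C1qb at 136880129 to 136886187, C1qc at 136889804 to 136893065 and C1qa at 136895917 to 136898803. The cluster spans 18675 bases, with gaps of 3616 and 2851 bases between genes. Apoe lies on chromosome 7 (19696109 to 19699188), Trem2 on chromosome 17 (48346401 to 48354147), Mrc1 on chromosome 2 (14229392 to 14332057) and Cd5l on chromosome 3 (87357881 to 87371073). Mrc1 holds the microRNA gene Mir511 on its own strand, and no other member overlaps another gene.

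The 250 bases before the gene start were read from RefSeq (GRCm38.p6) for 9 members, C1qa having no entry. This gave 11 windows, because Apoe had several. Those of Apoe at chr7:19698622-19698871 and chr7:19698399-19698648 lie inside the gene as placed above. All windows were searched on both strands for GAGGAA, the core bound by the myeloid factor PU.1, and TGCTGA, part of the element bound by MAF factors. The windows of 4 members are shown because these members differ widely in level below, C1qb being found in every combo C1q-high cell and Vsig4 nearly absent. Capitals mark GAGGAA or TGCTGA, or their reverse complements TTCCTC and TCAGCA. They lie at chr4:136886201-136886450 (minus strand, C1qb), chr17:48346151-48346400 (plus, Trem2), chr3:87357631-87357880 (plus, Cd5l) and chrX:96293439-96293688 (minus, Vsig4).
C1qb: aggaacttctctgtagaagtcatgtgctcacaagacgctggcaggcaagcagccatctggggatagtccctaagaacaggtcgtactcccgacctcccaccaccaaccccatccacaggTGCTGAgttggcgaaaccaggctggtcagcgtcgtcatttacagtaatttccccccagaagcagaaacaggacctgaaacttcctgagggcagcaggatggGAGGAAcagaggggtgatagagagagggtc
Trem2: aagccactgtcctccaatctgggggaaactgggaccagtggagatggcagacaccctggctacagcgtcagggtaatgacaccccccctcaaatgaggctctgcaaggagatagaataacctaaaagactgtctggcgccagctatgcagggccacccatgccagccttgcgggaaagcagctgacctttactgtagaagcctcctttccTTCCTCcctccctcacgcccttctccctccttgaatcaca
Cd5l: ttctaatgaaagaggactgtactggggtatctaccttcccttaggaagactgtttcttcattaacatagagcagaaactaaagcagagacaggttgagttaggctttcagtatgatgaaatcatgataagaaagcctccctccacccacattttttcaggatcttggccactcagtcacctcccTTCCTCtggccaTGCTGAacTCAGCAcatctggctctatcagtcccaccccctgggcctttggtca
Vsig4: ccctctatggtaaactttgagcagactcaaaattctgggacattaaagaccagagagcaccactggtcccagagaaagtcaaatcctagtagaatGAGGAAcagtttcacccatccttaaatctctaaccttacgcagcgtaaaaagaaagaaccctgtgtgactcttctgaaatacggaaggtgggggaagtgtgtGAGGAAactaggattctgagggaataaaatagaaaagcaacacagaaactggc

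GAGGAA was present for 8 of the 9 members, against 23.3% of all 32851 windows of the same length. TGCTGA was present for 3 (C1qb, Cd5l and Clec4f), against 16.1%, and Cd5l held it once on each strand. TATAAA was found for 1 member, Apoe, against 12.4%, and only in its window at chr7:19698622-19698871 inside the gene. A member counted when any of its windows held the letters, whereas the shares over all are per window. Of the nearly absent members, Vsig4 and Marco carried GAGGAA and Clec4f did not. A match describes these letters and is not evidence of binding.

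The libraries held 98107503 UMIs in 14509 barcodes (lenvatinib) and 93583402 in 11989 (combo). With at most 6000 genes and 25% mitochondrial UMIs, 14201 and 11613 cells were kept, with medians of 5541 and 5754 UMIs. The libraries shared 49 barcodes, of which none was C1q-high in either. Scrublet called 1 C1q-high cell a doublet in each library.

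Csf1r-positive cells numbered 710 of 14201 in the lenvatinib library and 1742 of 11613 in the combo library. C1q-high cells were 78 of the former (10.99%, 8.78 to 13.5) and 56 of the latter (3.21%, 2.44 to 4.15). As a share of all cells the values lay close together, at 0.549% and 0.482%. The lower share of Csf1r-positive cells under combo thus went with more C1q-low cells, 1686 against 632. Median total UMIs of C1q-high cells were 6590.5 under lenvatinib and 11517.5 under combo, so that the same split stood at a smaller part of a combo cell's UMIs. With every cell thinned to 2000 UMIs before gating, C1q-high cells made up 31 of 297 Csf1r-positive cells (10.4%, 7.20 to 14.5) in the lenvatinib library and 7 of 798 (0.877%, 0.353 to 1.80) in the combo library. At equal depth the share of all cells was also apart, at 0.255% and 0.0644%.

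**Figure D1:**
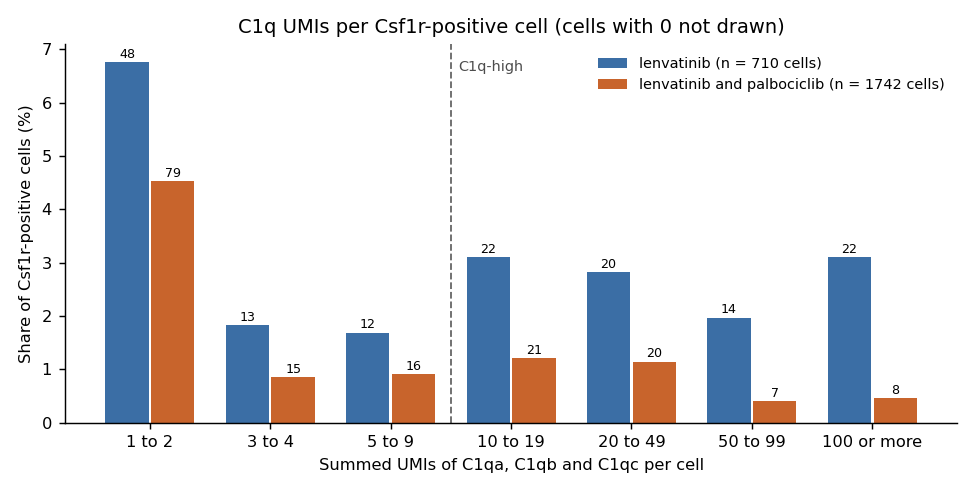
Share of Csf1r-positive cells (%, y axis) by summed C1q UMIs per cell (x axis) in each library, with cell numbers above the bars and a dashed line at the split of 10 UMIs; cells with none are not drawn and lenvatinib and palbociclib is combo. No C1q UMI was seen in 78.7% of the cells under lenvatinib and 90.5% under combo, and 22 and 8 cells held at least 100.

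C1q UMIs per cell spread widely and without a gap at the split. C1q-high cells held a median of 38.5 C1q UMIs under lenvatinib (10 to 806) and 34 under combo (10 to 479). Per 10000 UMIs of the cell the medians were 105.3 and 34.6. Just outside the split, with 5 to 9 C1q UMIs, were 12 and 16 cells, with Apoe at 2681 and 2966 CPM (a gene's UMIs scaled to the total of the class). Just inside it, with 10 to 14, were 11 and 15 cells, with Apoe at 6228 and 4601 CPM. A further 33 and 10 cells had at least 10 C1q UMIs and no Csf1r UMI, and were shallow, with median totals of 1915 and 1571.5 UMIs.

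In C1q-high cells C1qa was at 3817 CPM under lenvatinib and 1343 under combo, a ratio of 0.352 (0.326 to 0.380). C1qc was at 3164 and 1159 CPM, a ratio of 0.366 (0.337 to 0.398). C1qb was at 3913 and 2276 CPM, a ratio of 0.582 (0.546 to 0.620). All 3 chains were lower under combo, C1qb by less than the others, but with cells thinned before the split, which left 31 and 7 cells, the log2 ratio of C1qb was 0.00 in place of -0.78. C1qb made up 35.9% of C1q UMIs under lenvatinib and 47.6% under combo, and C1qa 35.0% and 28.1%. C1qa was detected in each of the 78 lenvatinib cells and in 46 of 56 combo cells (82.1%), and the 10 combo cells without it held at most 58 C1q UMIs. C1qb outnumbered C1qa in 41 of 78 cells (52.6%) and 46 of 56 (82.1%). In C1q-low cells C1qb was likewise the larger part under combo, at 56.5% of C1q UMIs (50.2 to 62.7), against 39.6% (32.4 to 47.1) under lenvatinib. In T cells without a Csf1r UMI, the background used below, it was 47.3% under combo and 37.6% under lenvatinib. The shift was thus not particular to Csf1r-positive cells.

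**Figure D2:**
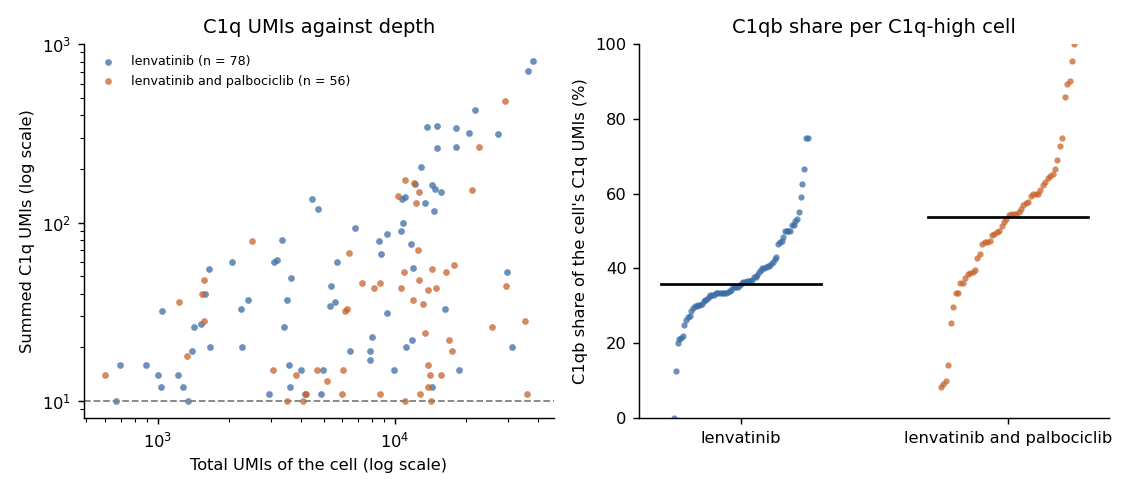
Left, summed C1q UMIs against total UMIs of each C1q-high cell, both on log axes, with a dashed line at 10 UMIs; right, C1qb as a percentage of the cell's C1q UMIs, with a bar at the median. Deep combo cells (lenvatinib and palbociclib) often held few C1q UMIs, and the median C1qb share was 35.9% under lenvatinib and 53.8% under combo.

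Apoe encodes apolipoprotein E, which carries lipid out of macrophages. In C1q-high cells it was at 15444 CPM under lenvatinib and 9463 under combo, a ratio of 0.613 (0.594 to 0.632), and was detected in 75 of 78 and 54 of 56 cells. In C1q-low cells the order was the opposite, at 334 CPM (318 to 350) and 788 (775 to 802), a ratio of 2.36 (2.25 to 2.49). C1q-high cells held 65.0% of all Apoe UMIs under lenvatinib and 24.0% under combo, and C1q-low cells 10.4% and 53.8%. Most Apoe RNA thus lay in C1q-high cells in the lenvatinib library and in C1q-low cells in the combo library.

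Trem2 encodes a lipid-sensing receptor that signals through Tyrobp. In C1q-high cells it was at 221 CPM (188 to 258) under lenvatinib and 270 (232 to 313) under combo, a ratio of 1.22 whose interval (0.980 to 1.53) includes 1. After thinning it was detected in 9 of 63 and 19 of 50 C1q-high cells. In C1q-low cells it was at 20.8 CPM (17.0 to 25.0) and 82.2 (78.1 to 86.6), a ratio of 3.96 (3.26 to 4.86), and was detected in 10.6% and 28.9% of cells, or 4.34% and 11.4% after thinning. Over all cells the ratio was 5.88 (5.21 to 6.65), which also counts the larger number of Csf1r-positive cells under combo. C1q-low cells held 34.3% of all Trem2 UMIs under lenvatinib and 81.4% under combo.

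Mrc1 encodes the mannose receptor CD206. In C1q-high cells it was at 443 CPM (396 to 495) under lenvatinib and 89.0 (67.6 to 115) under combo, a ratio of 0.201 (0.149 to 0.266). It was detected in 52 of 78 cells (66.7%) and 15 of 56 (26.8%), or 49.2% and 16.0% after thinning. Mrc1 was the member furthest apart between the libraries in these cells, and 1 combo cell held 51.7% of its UMIs there. In C1q-low cells Mrc1 was found in 23 of 632 and 14 of 1686 cells, at 9.14 and 1.37 CPM.

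Cd5l encodes a secreted protein of Kupffer cells that binds lipid. It was at 203 CPM (171 to 239) under lenvatinib and 115 (90.5 to 144) under combo in C1q-high cells, a ratio of 0.568 (0.424 to 0.756). These UMIs came from few cells, 20 of 78 (25.6%) and 6 of 56 (10.7%), and 1 combo cell held 41.3% of them. As a mean of single-cell CPM the ratio on the log2 scale was 0.01 in place of -0.82, so that its direction depends on how cells are weighted.

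Vsig4, a complement receptor, Clec4f, a lectin, and Marco, a scavenger receptor, were nearly absent. Under lenvatinib all 3 were at 0 UMIs in 78 C1q-high cells, where 3 counts would be 4.22 CPM. Under combo C1q-high cells held 4 UMIs of Vsig4 in 1 cell, 1 of Clec4f and 2 of Marco in 2 cells. Marco had 14 UMIs in 5 C1q-low cells under combo and 0 under lenvatinib. At least 2 of Cd5l, Vsig4, Clec4f and Marco were found together in no lenvatinib cell of 78 (upper limit 4.62%) and in 2 combo cells of 56 (3.57%, 0.435 to 12.3). Timd4, another Kupffer gene, had 0 and 1 UMI in C1q-high cells. Of 14 further Kupffer identity genes, 4 were at 0 in C1q-high cells under lenvatinib (Timd4, Cd163, Lyve1 and C6) and 2 under combo (Lyve1 and C6). Others were well detected under lenvatinib, among them Slc40a1 in 67.9% of cells, Clec1b in 50%, Fcna in 44.9% and Spic in 42.3%, against 25%, 7.14%, 12.5% and 21.4% under combo. Hmox1 (65.4% and 60.7%) and Nr1h3 (44.9% and 39.3%) lay closer between the libraries, and Id3 was found more often under combo (15.4% and 55.4%). Kupffer genes were thus divided between those at or near 0 and those detected, and the cells are called here by their C1q UMIs.

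**Figure D3:**
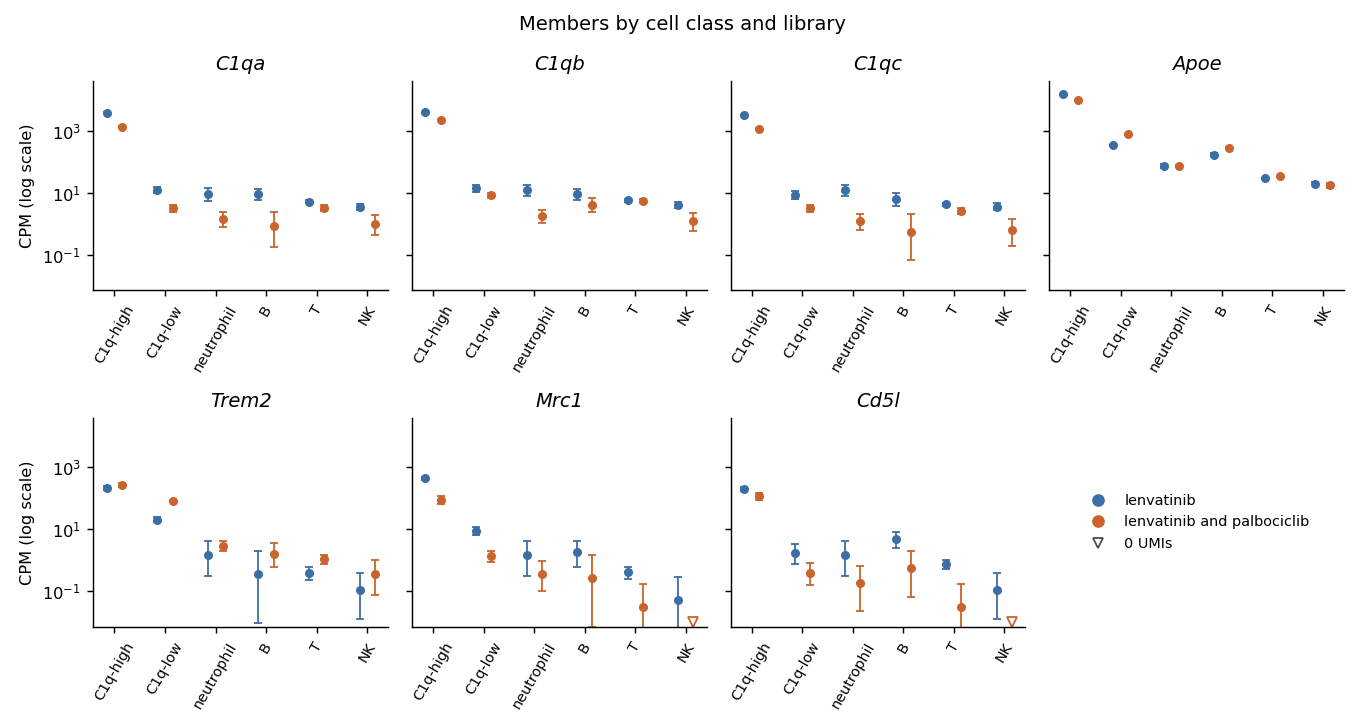
CPM (log axis) of the 7 members with more than a few UMIs, by cell class and library, with exact Poisson 95% intervals, some of which run past the lower limit of the axis; open triangles mark 0 UMIs and lenvatinib and palbociclib is combo. Apoe and Trem2 were higher under combo in C1q-low cells, whereas C1qa, C1qc and Mrc1 were lower in C1q-high cells.

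A gene was compared between the libraries when it reached 50 CPM in either and 10 counts in both, which 3414 genes did in C1q-high cells. At least 2-fold higher under combo were 6.65% of them and 2-fold lower 13%. Of the 7 members past these limits none was 2-fold higher, C1qa, C1qc and Mrc1 were 2-fold lower, and C1qb, Apoe, Trem2 and Cd5l lay within 2-fold. In C1q-low cells 3234 genes could be compared, of which 2.44% were 2-fold higher and 2.47% lower. Both members past the limits there, Apoe and Trem2, were higher. Other settings ended some of these calls. After thinning before the split, which left 7 combo cells, the log2 ratio in C1q-high cells was -0.06 for C1qa and -0.76 for Mrc1, and without the cell richest in Mrc1 in each library it was -3.22 for Mrc1. When each cell weighed the same, it was -0.88 for C1qa, -0.99 for C1qc and -0.07 for Apoe, and for Apoe in C1q-low cells it was 0.37. The median ratio over all genes compared was 0.944 in C1q-high and 0.898 in C1q-low cells.

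Within each library, members outside the rule were also higher in C1q-high than in C1q-low cells. Apoe was at 15444 against 334 CPM under lenvatinib (46.3 times) and at 9463 against 788 under combo, Trem2 was 10.6 (8.28 to 13.7) and 3.28 (2.79 to 3.84) times, and Mrc1 48.5 and 65.1 times, while Cd5l had under 10 counts in C1q-low cells. Of all genes compared this way, 13.3% were at least 2-fold higher in C1q-high cells under lenvatinib and 5.09% under combo. The distance between the classes was smaller under combo for Apoe and Trem2, both of which were higher there in C1q-low cells.

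Free RNA can place a UMI in any droplet, so T cells without a Csf1r UMI served as background (7013 and 5003 cells, median depths 6230 and 5515 UMIs). C1qa was seen in 2.71% and 0.660% of them, C1qb in 3.19% and 1.06%, Trem2 in 0.285% and 0.640%, and Apoe in 11.9% and 11.8%. In C1q-low cells, at median depths of 6255 and 8733 UMIs, C1qa was seen in 5.38% and 2.25%, Trem2 in 10.6% and 28.9% and Apoe in 35.8% and 57.0%. Apoe and Trem2 in C1q-low cells thus lay well above the background in T cells. In B cells Apoe was at 168 (153 to 184) and 279 (262 to 297) CPM, above the 28.8 and 33.7 of T cells, and in neutrophils at 72.6 and 73.1. It was also higher under combo in basophils or mast cells (231 and 933 CPM, 33 and 14 cells) and dendritic cells (9.96 and 32.2). The same held for plasmacytoid dendritic (57.8 and 89.8), mixed (51.9 and 83.9) and ungated cells (266 and 368), but not NK cells (19.5 and 17.1). Higher Apoe under combo was thus not limited to C1q-low cells.

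**Figure D4:**
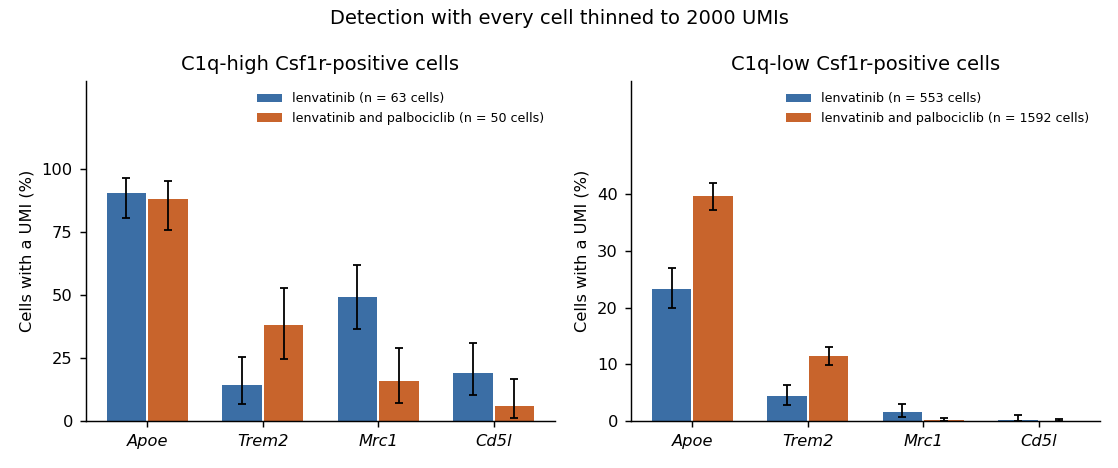
Share of C1q-high and C1q-low cells (%) with a UMI of Apoe, Trem2, Mrc1 or Cd5l after thinning to 2000 UMIs, with exact binomial 95% intervals; classes were assigned on all UMIs. In C1q-high cells Mrc1 was detected in 49.2% of cells under lenvatinib and 16.0% under combo, and Trem2 in 9 of 63 and 19 of 50.

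Members seen in the same cell were counted against the product of their single shares. Trem2 and Mrc1 were found together in 26 cells under lenvatinib, where the product of their shares gives 21.3, and in 10 under combo, where it gives 8.84. Mrc1 and Cd5l shared 15 cells (13.3 from the shares) and 4 (1.61), and Trem2 and Cd5l 7 (8.21) and 2 (3.54). In C1q-low cells Apoe and Trem2 were together in 53 cells (24.0 from the shares) and 422 (278). Deep cells detect more of every gene, so the pairs were also counted with cells thinned to 2000 UMIs. Apoe and Trem2 were then together in 16 C1q-low cells (5.599 from the shares) and 120 (72.1). In C1q-high cells Trem2 and Mrc1 shared 6 (4.43) and 3 (3.04), and Mrc1 and Cd5l 8 (5.90) and 2 (0.480). At equal depth Apoe and Trem2 were thus still together in C1q-low cells more often than their shares give in both libraries.

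C1q-high cells were split by a UMI of Cd5l, a split chosen after the data were seen. Cells with Cd5l were shallower, with medians of 5591.5 against 7873 UMIs under lenvatinib and 4410.5 against 12180 under combo. Under lenvatinib the 20 cells with Cd5l had C1qa at 5459 CPM and Apoe at 22322, against 3232 and 12991 in the 58 cells without. The monocyte genes Ly6c2 and Ccr2 were each at 16.1 CPM with Cd5l, against 235 and 134 without. Under combo the 6 cells with Cd5l had C1qa at 3255 CPM and Mrc1 at 359, against 1230 and 73.1 in the 50 without, and Ly6c2 had no UMI, against 312 CPM. In both libraries cells with Cd5l thus held more C1qa and less Ly6c2 and Ccr2 (82.7 against 518 CPM under combo). T cells held Ly6c2 at 980 CPM under lenvatinib and 719 under combo, and Ccr2 at 115 and 69.8, so neither gene marks monocytes alone. Under combo 560 genes could be compared. Furthest higher with Cd5l were Hist1h2ae (67.9 times), the adhesion molecule Vcam1 (43.8), Stmn1 (26.0), the iron exporter Slc40a1 (25.5) and Actn1 (23.5). They rested on 18 to 93 UMIs in 6 cells, and the interval for Hist1h2ae was 34.5 to 146. Furthest lower were S100a9 and S100a8 (0.0894 and 0.0936 times), neutrophil genes, with S100a6, Prdx5 and Cxcl2. Under lenvatinib, where 3057 genes could be compared, Cxcl1, Ccr3, Creb5, Cd22 and Oasl1 were furthest higher (8.74 to 4.98 times). The plasma cell genes Igkc, Jchain and Igha with Ifi27l2a and Tmsb10 were furthest lower. Igkc had a median of 1 UMI and a mean of 29.4 per C1q-high cell there, so that its CPM rested on the cells above the median.

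**Figure D5:**
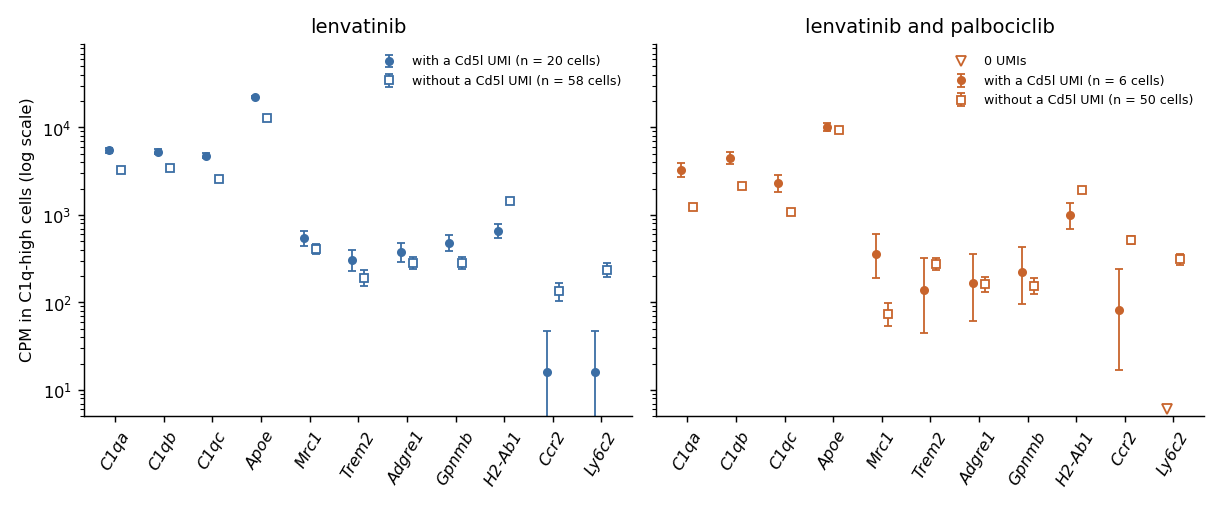
CPM of members and of other myeloid genes in C1q-high cells with and without a Cd5l UMI, by library, on a log axis with exact Poisson 95% intervals, some of which run past its lower limit; the open triangle marks 0 UMIs. C1qa, which is among the genes that set the class, was higher and Ly6c2 lower in cells with Cd5l in both libraries.

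A split by Mrc1, also chosen after the data were seen, gave C1qa at 4533 CPM and Apoe at 18532 in the 52 lenvatinib cells with Mrc1, against 1432 and 5156 in the 26 without. Under combo the 15 cells with Mrc1 had C1qa at 2964 CPM, against 853 in the 41 without. Median depths with and without Mrc1 were 9025 and 3816.5 UMIs under lenvatinib and 8639 and 12316 under combo. Cells with Mrc1 thus held more C1qa in both libraries, which is again a description because C1qa counts toward the rule.

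C1q-low cells with Trem2 (67 under lenvatinib, 488 under combo) were deeper than those without, with medians of 9607 and 13047.5 UMIs against 5870 and 6190. Their Apoe was at 993 and 1462 CPM, against 226 and 359. The monocyte receptor Ccr2 was at 724 and 684 CPM, against 360 and 287, and the macrophage gene Adgre1 at 124 and 125, against 35.9 and 42.5. The neutrophil gene S100a8 was lower in CPM with Trem2, at 3050 and 6524 against 7818 and 35556. Its detection was alike, at 68.7% and 99.6% of cells with Trem2 against 69.6% and 98.6% without. Mrc1 was at 5.45 and 0.731 CPM with Trem2, against 9.74 and 1.77 without. The values with Trem2 rested on 4 and 5 UMIs, and the intervals with and without Trem2 overlapped in both libraries. Mrc1 was detected in a larger share of the deeper cells with Trem2, 5.97% and 1.02% against 3.36% and 0.751%, so no direction is given. The cells with Trem2 thus had higher Apoe, Ccr2 and Adgre1 in both libraries, and lower S100a8 in CPM only.

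Other genes of these cells were counted by lists chosen with results known, which hold no member. Over all genes compared in C1q-high cells, 6.65% were 2-fold higher under combo and 13% lower. In C1q-high cells 6 of the 8 Kupffer identity genes past the limits were 2-fold lower under combo and 1, Id3, was higher (7.60 times), with Slc40a1 at 1379 and 130 CPM and a median ratio of 0.216, beside 0.944 over all genes. Of 7 monocyte genes 5 were higher, with Chil3 80.9 times and Plac8 6.13 times as high, and none lower (median ratio 4.81). The Chil3 ratio (53.7 to 128) rested on 23 lenvatinib UMIs in 3 cells. Chil3 was also higher under combo in T cells (12.6 and 115 CPM) and in C1q-low cells (418 and 2713). Of 12 genes of lipid-associated macrophages 7 were lower and 1, Spp1, higher, at 114 and 1255 CPM (median ratio 0.410). Spp1 was detected in a smaller share of cells under combo (30.8% and 23.2%), so its higher CPM there rested on 13 cells. Of 6 TREM2 signaling genes 1, Ms4a7, was lower (0.12 times) and Tyrobp was at 1809 and 2524 CPM (median ratio 1.08). Of 11 macrophage genes 2 were higher (Cx3cr1 3.67 and Lyz2 2.68 times) and 4 lower, among them the efferocytosis receptors Axl (0.15) and Mertk (0.16), with a median ratio of 0.838. That list holds Csf1r, which the gate required in every cell, and the median is the ratio of Csf1r itself. Kupffer and lipid-associated genes were thus mostly lower and monocyte genes mostly higher under combo.

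The remaining lists in C1q-high cells stand beside the same 6.65% higher and 13% lower over all genes. With so few genes per list, a count of 1 is not read as a result. Lipid efflux genes had 2 of 9 higher and 3 lower (median ratio 0.798), with the cholesterol exporter Abca1 at 0.22 times. Complement genes had 2 of 6 higher (Itgam, C5ar1) and 2 lower (Itgax, C3ar1), with a median ratio of 0.731. Of 7 scavenger receptors 1, Stab1, was lower (0.26 times, median ratio 0.634), which is near the share over all genes. Of 6 MHC class II genes 1, H2-DMb1, was higher (2.37 times; median ratio 1.54). Of 7 interferon genes 1, Ifitm3, was higher (4.69 times) and 3 were lower (median ratio 0.536). Both cell cycle genes past the limits, Pcna and Mki67, were within 2-fold. No hepatocyte, endothelial or stellate gene passed the limits, and all 4 stellate genes were at 0. Of 4 neutrophil genes 3 were higher, and their list summed to 374 CPM under lenvatinib (6 genes, none at 0) and 15730 under combo. S100a8 was at 170 and 7834 CPM in C1q-high cells and at 323 and 2179 in T cells. Per combo C1q-high cell the median was 6.5 S100a8 UMIs and the mean 91.2, against a median of 4 in combo T cells, so that its CPM rested on the cells above the median. Neutrophil and monocyte RNA thus moved with the library in these cells, and their part in the members' ratios was not tested. In C1q-low cells 5 of 7 MHC class II genes were lower under combo (median ratio 0.485), beside 2.47% of all genes compared. Detection lay closer, with H2-Ab1 in 37.3% and 32.5% of C1q-low cells. The dendritic cell gate alone was met by 6.01% of C1q-low cells under lenvatinib and 2.19% under combo, and its part in these ratios was not tested. Higher were 3 of 9 monocyte genes (median ratio 1.32) and 3 of 9 macrophage genes (1.55, with Csf1r among the 9), beside 2.44%. The neutrophil list had 4 of 6 genes higher there and none lower (median ratio 3.40, beside 0.898 over all genes), and summed to 14385 and 49444 CPM. The part of neutrophil RNA in the Apoe and Trem2 ratios of C1q-low cells was not tested.

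Of the C1q-high cells, 49 of 78 and 39 of 56 met no gate of another type (at least 2 UMIs of its markers), whereas 13 and 8 met that of T cells alone. Of the C1q-low cells only 226 of 632 (35.8%) and 680 of 1686 (40.3%) met no other gate, and 153 (24.2%) and 540 (32.0%) met that of neutrophils alone. In the C1q-low cells of no other gate the log2 ratio of Apoe was 0.75 in place of 1.24 and that of Trem2 1.33 in place of 1.99. Igkc was at 3228 CPM in C1q-high cells under lenvatinib, with a median of 1 UMI per cell and a mean of 29.4, and at 348 under combo, beside 333 and 380 in T cells. Without any cell of another gate the C1qa ratio on the log2 scale was -0.93 in place of -1.51.

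The genes whose level followed summed C1q most closely over 22 points (11 classes in 2 libraries, which share depth and free RNA within a library) were, by Pearson's r of log2(CPM + 1) among 5711 genes, Mmp12 (0.970), Igf1 (0.954), Cd5l (0.954), Vcam1 (0.944), Ms4a7 (0.936), Nr1h3 (0.935), Mrc1 (0.929), Spic (0.926), Ccl8 (0.926) and Mertk (0.916). Trem2 came at rank 42 (0.810) and Apoe at rank 108 (0.718). The C1q-high points were set by summed C1q itself and hold most of its UMIs, so the order is not independent of the rule.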

How the data were processed

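The authors deposited unnormalized UMI counts (a gene by barcode matrix) for 2 libraries, with reads mapped to mm10. The submitters' processing notes name Cell Ranger 5.0.1 and the file header 6.0.1. Cells with at most 6000 genes and at most 25% mitochondrial UMIs were kept. Every barcode had at least 500 UMIs. Members and gene lists were chosen with earlier results of these data known. Cells without a Csf1r UMI were put in a class by at least 2 UMIs of its markers (T, NK, B, neutrophil, dendritic, plasmacytoid dendritic, basophil or mast), and cells in several classes were called mixed. Counts were summed per class and library and scaled to CPM. Ratios have exact conditional intervals. Shares of cells were also taken after drawing 2000 UMIs from every cell that held that many. Scrublet (scanpy 1.11.5, expected rate 6%) called doublets, which were kept in the main result. Genes named are the members, Csf1r, those with the 2 largest and 2 smallest ratios of each list, of which some are printed, the 10 closest to summed C1q, and 5 per direction between C1q-high cells with and without Kupffer genes. That last split held 0 and 2 cells and was replaced by Cd5l, Mrc1 and Trem2. Other genes named (such as Timd4, Ccr2, Adgre1, Igkc and further Kupffer genes) were chosen after their values were seen. Python 3.11.15, numpy 2.4.6, scipy 1.17.1 and pandas 2.3.3 were used, and the steps were tested on simulated data. Alternatives covered the filter, gates, split, thinning, doublets, CPM total, free RNA and floors. Depth was 98107503 and 93583402 UMIs.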

Additional observations from a re-analysis of the deposited data

How the results depend on the processing

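With 1 library per condition, no replicate could be left out. No paired analysis was possible because each condition has 1 library. The C1q-high share of Csf1r-positive cells (10.99% under lenvatinib, 3.21% under combo) was 18.4% and 5.47% with at least 2 Csf1r UMIs, 17.8% and 5.42% without cells in a gate of another type, and 7.89% and 2.01% with the split at 20. Thinning before the gate gave 0.877% under combo, and leaving out cells with T, NK or B markers, an alternative chosen after seeing the data, gave 8.14% under lenvatinib. The share of all cells under lenvatinib (0.549%) was 0.366% with 2 Csf1r UMIs, 0.345% in no other gate, 0.394% with the split at 20 and also without T, NK or B markers, 0.255% after thinning and 0.782% without the Csf1r gate, the last also chosen after seeing the data. Under combo (0.482%) it was 0.336% in no other gate, 0.301% with the split at 20 and 0.0644% after thinning. The share with Kupffer genes was 25.6% under lenvatinib and 14.3% under combo when 1 gene of 4 sufficed, 14.3% under combo after thinning and 0% when 3 were needed. Genes past 2-fold in C1q-high cells (670) were 30 after thinning and 367 at a floor of 100 CPM, and in C1q-low cells (159) 336 at 20 CPM and 88 at 100 CPM. Among member ratios in C1q-high cells, C1qa ranged on the log2 scale from -1.71 to -0.06, the latter after thinning with 7 combo cells, Mrc1 from -3.22 to -0.76, Trem2 from 0.16 to 1.15 and Cd5l from -1.47 to 0.56. In C1q-low cells Trem2 stayed at least 2-fold higher under 14 of 14 alternatives (1.33 to 2.04) and Apoe under 10 of 14 (0.37 to 1.34). The causes were not tested.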
